A study of Sus scrofa with 9 samples.

Results

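ADGRG1 and S1PR5 are surface receptors of effector lymphocytes, and their transcripts were followed in sorted T cells from the blood of sows. Every probe whose sequence accession maps to pig ADGRG1 or S1PR5 was taken, which gave 4 of the 43603 probes on the array and 2 of the 3052 genes that could be named. ADGRG1 had 1 probe (A_72_P204067, designed to NM_001243056) and S1PR5 had 3 (A_72_P388344, A_72_P567479 and A_72_P089021, all designed to NM_001123109). Both genes were chosen by their signal and detection flags in these same 3 fractions, bright in cells with CD8 and dim in the CD4 fraction, so their levels and the differences between fractions are given as a description with no test.

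Blood mononuclear cells were separated on Percoll and sorted into CD3+CD4+CD8+ cells (called double positive here), CD3+CD4+ cells (the CD4 fraction) and CD3+CD8+ cells (the CD8 fraction), with 3 arrays each, which the series text calls biological replicates. The labels name no stimulation of the cells, and strain, age, number of sows and the purity of the sort were not stated. RNA, 25 ng per sample, was amplified and hybridised in a single colour. The labels give only the markers carried by each fraction, and do not state whether CD3+CD4+ cells were gated as negative for CD8, or CD3+CD8+ cells as negative for CD4.

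ADGRG1, formerly GPR56, is an adhesion G protein-coupled receptor. Its long extracellular part is cut during maturation and stays bound to the part that crosses the membrane, and it is known from natural killer cells and cytotoxic T cells, where it restrains effector functions. S1PR5 is a receptor for the lipid sphingosine 1-phosphate, which is abundant in blood, and it is known for guiding natural killer cells and effector T cells out of tissues into the circulation under the control of the transcription factor T-bet. In pigs, T cells with both CD4 and CD8 alpha are common in blood and are regarded as antigen-experienced helper cells.

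The signal at the 75th percentile of an array, to which values were scaled, ran from 15.2 to 84.1 over the 9 arrays, and 32.6% to 53.7% of the probes were well above background by the scanner program's flag. The brightest and the dimmest of the 9 arrays both belonged to the CD4 fraction (arrays 1 and 2). The arrays lay on 3 slides, and double positive array 1 was alone on slide 1. Slide 2 held double positive array 2, CD4 array 2 and CD8 arrays 1 and 2, and slide 3 the other 4. As a check of the sort, the scaled signal of CD8A (log2 of the signal over the array's 75th percentile, mean ± SD, n = 3) was 3.47 ± 0.76 in double positive cells, 0.27 ± 0.67 in CD4 cells and 5.35 ± 0.57 in CD8 cells. That of CD4 was 2.14 ± 0.91, 1.92 ± 0.44 and -2.04 ± 1.24 in the same order. CD8A stayed well above background on each CD4 array. The natural killer cell list had 1 of its 6 genes named on the array, NCR1, which was not well above background on any array. No gene of the gamma delta T cell list had a named probe, so such cells within the CD8 fraction were not analysed here.

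ADGRG1 was bright in double positive cells and in the CD8 fraction and close to background in the CD4 fraction. Its processed signal, an intensity on the scanner's linear scale, was 3069.8, 1530.3 and 865 on double positive arrays 1, 2 and 3. It was 860.3, 2068 and 816 on the arrays of the CD8 fraction, and 73.3, 2.90 and 22.4 on those of the CD4 fraction. All 6 arrays of the fractions that carry CD8 were more than 10 times brighter than any array of the CD4 fraction before any scaling. Of the CD4 arrays, 2 of 3 detected the gene well above background, and array 2, the array with the lowest overall brightness, did not.

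After scaling, the log2 level of ADGRG1 was 6.27, 5.17 and 5.51 on the double positive arrays, 5.55, 6.41 and 4.78 on the CD8 arrays and -0.20, -2.39 and -0.37 on the CD4 arrays. The means were 5.65 ± 0.56 in double positive cells, 5.58 ± 0.82 in the CD8 fraction and -0.99 ± 1.22 in the CD4 fraction (SD, n = 3 each). The double positive and CD8 arrays covered one range, and the lowest double positive array lay 5.37 log2 units above the highest CD4 array. Ranges did not overlap between these fractions for 10.1% of all tested probes, nor between the CD4 and CD8 fractions for 8.01%, and nothing is read from this for genes chosen by that contrast. The order was thus double positive, CD8 and CD4, where the first pair did not differ beyond their spread.

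Expressed as differences, ADGRG1 was 99.4-fold higher in double positive cells than in the CD4 fraction (log2 6.64, SE 0.60) and 94.7-fold lower in CD4 than in CD8 cells (log2 -6.57, SE 0.60). These are the values for which the gene was chosen: of the 16023 probes tested, 0 had a larger difference in either comparison. Both differences rest on the same CD4 arrays. With the signal on CD4 array 2 raised to the lowest signal that counted as well above background there (8.81), the folds were 68.7 and 65.4, and without that array the log2 differences were 5.93 and -5.86. With a normexp background correction, which adds an offset of 50 to every signal, the fold over the CD4 fraction was 20.2. In sorted samples measured as a whole, fewer cells with the transcript and less transcript per cell cannot be told apart.

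**Figure D1:**
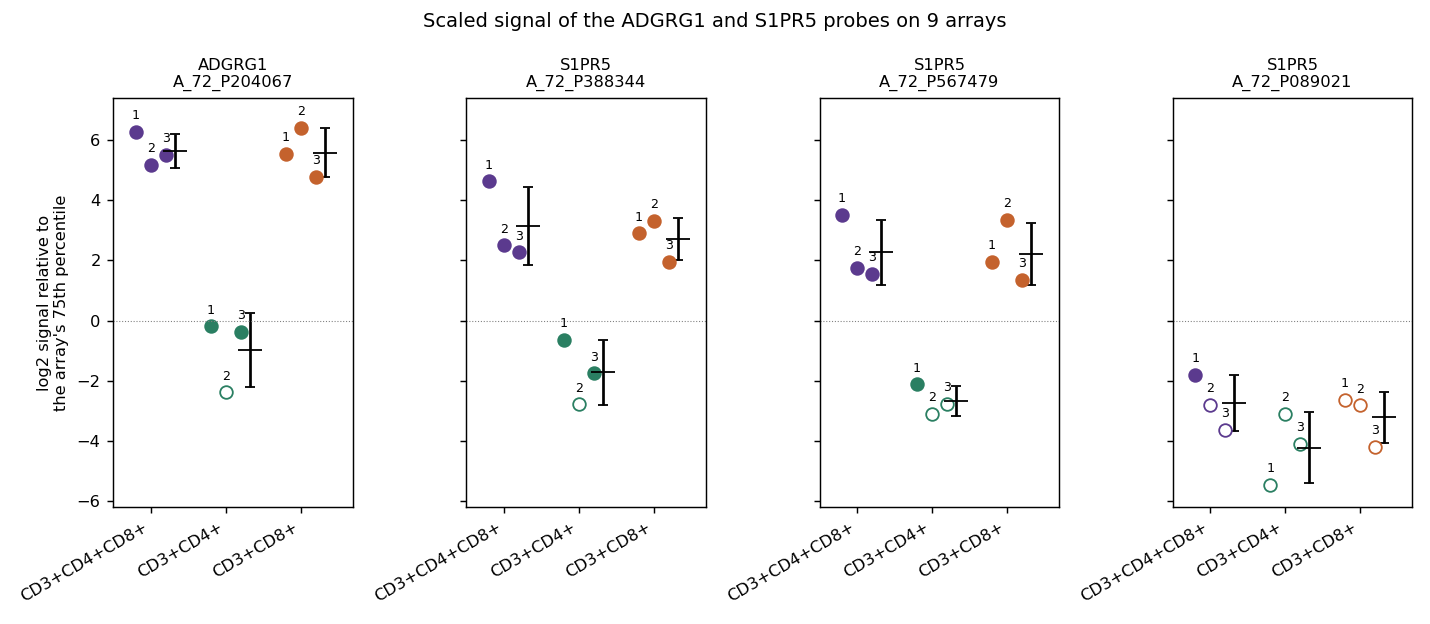
Scaled signal (log2 relative to the 75th percentile of the array) of the ADGRG1 probe and the 3 S1PR5 probes in the 3 fractions, 1 point per array with its replicate number, filled where well above background and open where not; bars give mean ± SD (n = 3). For ADGRG1 and for the S1PR5 probes A_72_P388344 and A_72_P567479 the double positive and CD8 arrays overlap and all lie above the CD4 arrays, whereas A_72_P089021 is well above background on 1 of 9 arrays.

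S1PR5 had the same order of fractions at a lower signal. By its brightest probe, A_72_P388344, the processed signal was 982, 240.5 and 91.5 on double positive arrays 1, 2 and 3. It was 137, 241 and 114 on the CD8 arrays and 54.3, 2.21 and 8.51 on the CD4 arrays. Without scaling the lowest double positive array was less than 2 times as bright as CD4 array 1, the array with the highest overall brightness, so for S1PR5 the gap between fractions depends on the scaling more than for ADGRG1.

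Scaled, the probe A_72_P388344 stood at 4.63, 2.50 and 2.27 on the double positive arrays, at 2.89, 3.31 and 1.94 on the CD8 arrays and at -0.63, -2.78 and -1.76 on the CD4 arrays. The means were 3.13 ± 1.30, 2.72 ± 0.70 and -1.72 ± 1.08 (SD, n = 3 each). Every double positive and CD8 array lay above every CD4 array, by at least 2.90 and 2.57 log2 units, and the double positive and CD8 arrays overlapped. Within double positive cells array 1 stood apart from the other pair.

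The second probe, A_72_P567479, gave 3.51, 1.75 and 1.54 on the double positive arrays, 1.95, 3.34 and 1.35 on the CD8 arrays and -2.13, -3.11 and -2.77 on the CD4 arrays. Of the CD4 arrays, 1 of 3 was well above background. Its means were 2.27 ± 1.08, 2.21 ± 1.02 and -2.67 ± 0.50. Against the CD4 fraction the double positive cells were 29.0-fold higher by A_72_P388344 (log2 4.86, SE 0.69) and 30.6-fold higher by A_72_P567479 (log2 4.93, SE 0.63). The CD4 fraction was 21.7-fold and 29.4-fold lower than the CD8 fraction by these probes (log2 -4.44, SE 0.69, and -4.88, SE 0.63). Both probes thus gave the same picture, though both read the same RNA samples and are no replicates of each other.

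Since S1PR5 lay near background in the CD4 fraction, these folds are limited by the floor of the measurement. With CD4 signals not well above background raised to the lowest signal that was, the double positive cells were 18.3-fold higher by A_72_P388344 and 14.3-fold higher by A_72_P567479. The normexp correction gave 4.81-fold and 3.61-fold. The third probe, A_72_P089021, was well above background on 1 of 3 double positive arrays (array 1, signal 11.4) and on no other array, and gives no fold. It was not among the tested probes.

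**Figure D2:**
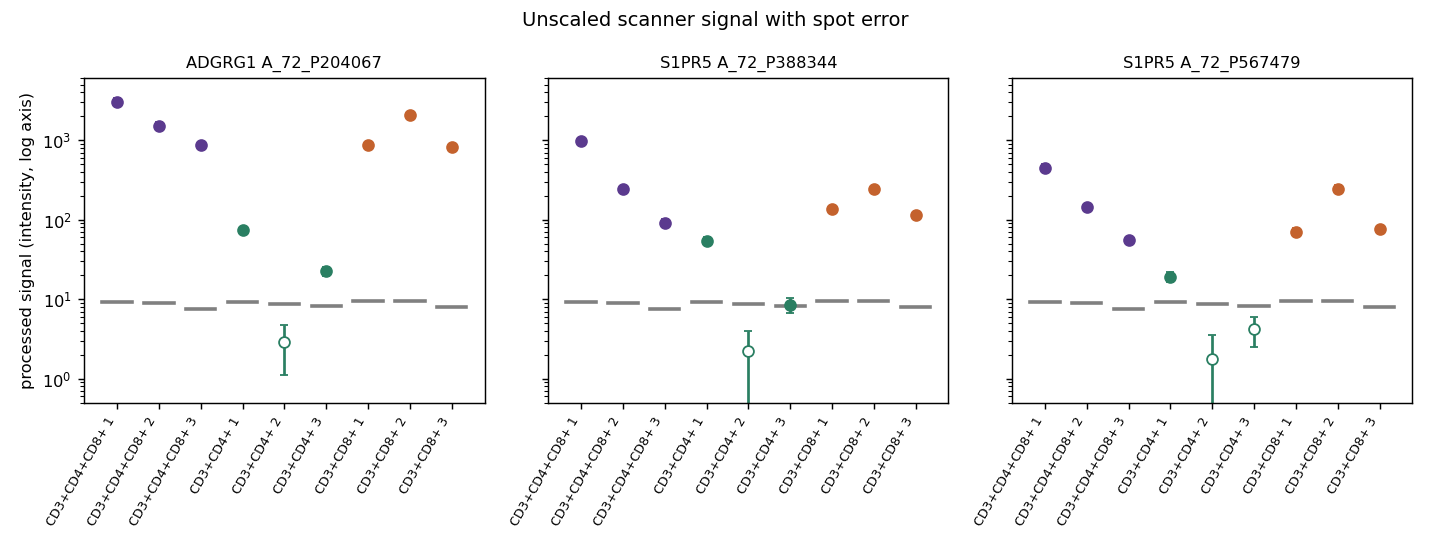
Unscaled processed signal on a logarithmic axis for the ADGRG1 probe and the 2 S1PR5 probes with usable signal on each of the 9 arrays; error bars are the scanner program's own error of the spot, grey dashes the lowest signal among probes well above background on that array, and open points were not well above background. ADGRG1 is at 816 or higher on all double positive and CD8 arrays, and S1PR5 reaches at most 8.51 on CD4 arrays 2 and 3, where the grey dashes are at 8.81 and 8.33.

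The scanner program put the error of the ADGRG1 and A_72_P388344 spots at no more than 10.1% of their signal on every double positive and CD8 array. On the CD4 arrays it was 10.3% to 61.6% for ADGRG1 and 10.6% to 80.3% for A_72_P388344. For A_72_P567479 it reached 99.8% on the CD4 arrays.

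The arrays that were high or low within a fraction were partly shared by the genes. Double positive array 1 was the highest of its fraction for ADGRG1 (0.62 above the fraction's mean on the log2 scale) and for S1PR5 (1.50 and 1.24 above by the brighter and the second probe). CD8 array 2 was the highest of its fraction for both genes (0.83, 0.60 and 1.13 above) and CD8 array 3 the lowest (-0.80, -0.77 and -0.86). In the CD4 fraction array 1 was the highest for both genes (0.79, 1.09 and 0.54) and array 2 the lowest (-1.41, -1.06 and -0.44). Overall brightness moved with these last values, since the 75th percentile was 84.1 on CD4 array 1, 28.8 on array 3 and 15.2 on array 2; its part in the level of these genes was not tested. Among the double positive arrays the 75th percentile was 39.7, 42.5 and 19.0, so the array with the highest ADGRG1 and S1PR5 was not the brightest one.

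Between double positive cells and the CD8 fraction, neither gene had a difference beyond the spread between arrays. ADGRG1 differed by 0.07 on the log2 scale (SE 0.60), A_72_P388344 by 0.42 (SE 0.69) and A_72_P567479 by 0.06 (SE 0.63). The sign depended on single arrays. Without double positive array 1 the differences were -0.24, -0.33 and -0.56, and within slide 2 they were -0.81, -0.60 and -0.89, against 0.73, 0.33 and 0.19 within slide 3. Within these slides the differences from the CD4 fraction kept their direction: double positive cells were higher by 7.56 (ADGRG1), 5.28 and 4.86 (S1PR5) on slide 2 and by 5.79, 3.46 and 3.99 on slide 3. Slide 2 set double positive array 2 against CD4 array 2 alone, where none of these probes was well above background. Its values thus rest on dim signals. Markers of B cells moved with the CD8 arrays: CD79A, which signals for the B cell receptor, had means of -0.05, 0.17 and 3.15 in double positive, CD4 and CD8 cells. It was called lower in double positive than in CD8 cells (log2 -3.20, limma adjusted p = 0.0452, range over the alternatives 0.00470 to 0.177). The call held only without double positive array 3, without the filter on dim probes and with the replicate number as a block. It was lost under every other alternative, including each other array left out, slide as a block and the other normalizations. The B cell list had 3 of its 7 genes named on the array and 1 of them tested. The summed scaled signal of those 3 genes ran from -1.19 to 1.51 on the double positive arrays, from 0.12 to 1.21 on the CD4 arrays and from 2.43 to 3.63 on the CD8 arrays (log2); its part in the level of ADGRG1 and S1PR5 was not tested.

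**Figure D3:**
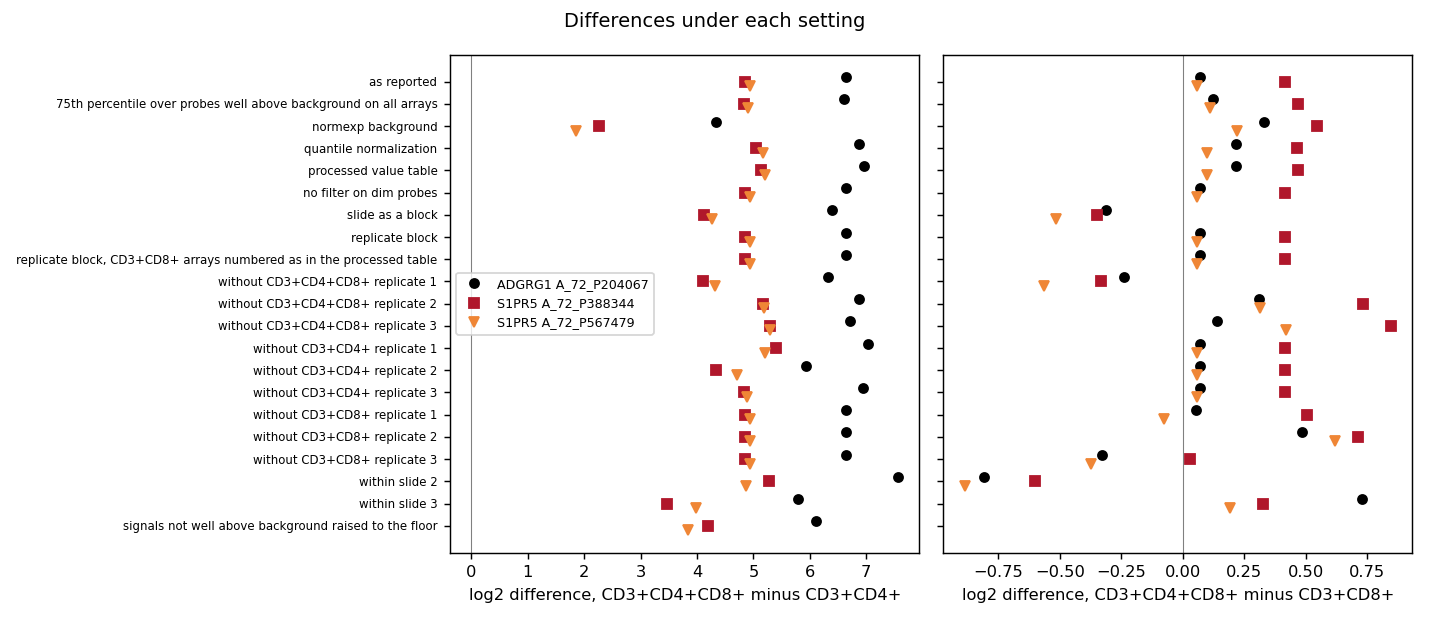
Log2 difference of ADGRG1 (circles) and S1PR5 (squares and triangles for A_72_P388344 and A_72_P567479) between double positive cells and the CD4 fraction (left) and the CD8 fraction (right) as reported and under each other processing or set of arrays. On the left all points are above 0, with the lowest under the normexp correction (4.33, 2.26 and 1.85), and on the right points fall on both sides of 0.

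The genes most like ADGRG1 over the 9 arrays were sought among the 1507 named genes tested. Likeness was the root mean square difference, in log2 units, between values centred on each gene's own mean, so that 0 would be the same profile. The profile closest to ADGRG1 was that of S1PR5, at 1.05, where the median over all 1506 other genes was 3.23. Next came KLRK1, which encodes the receptor NKG2D (1.05), the chemokine CCL5 (1.06), IFNG, which encodes interferon gamma (1.49), and CD8A (1.67). SLA-DRA (1.81), SLA-DRB1 (1.92) and SLA-DQB1 (1.93), chains of MHC class II, filled the list of 8.

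For S1PR5 the closest were CCL5 (0.72), IFNG (0.91) and ADGRG1 (1.05), with a median of 2.39 over the other genes. SLA-DRA (1.15), SLA-DRB1 (1.17), KLRK1 (1.20), DMD, the gene of the muscle protein dystrophin (1.21), and SLA-DQB1 (1.21) followed. The arrays share their fraction and, in part, their slide, so these profiles are alike mainly through the low CD4 arrays, which is the pattern for which ADGRG1 and S1PR5 were chosen. In the CD4 fraction KLRK1, IFNG and DMD were detected well above background by 1 of 3 arrays and CCL5 by 2 of 3.

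The genes close to ADGRG1 and S1PR5 did not all place the upper fractions alike. KLRK1 stood at 3.00, 0.69 and 2.98 on the double positive arrays and at 4.31, 3.24 and 2.63 on the CD8 arrays. Double positive array 2 was thus low for KLRK1, while for ADGRG1 and S1PR5 it lay near array 3. IFNG stood at 1.85, 1.21 and 1.28 on the double positive arrays and at 1.81, 0.91 and 0.05 on the CD8 arrays. CD8A was at 4.32, 2.84 and 3.26 on the double positive arrays, below all CD8 arrays (5.81, 5.53 and 4.72), whereas the ADGRG1 arrays of these fractions overlapped.

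**Figure D4:**
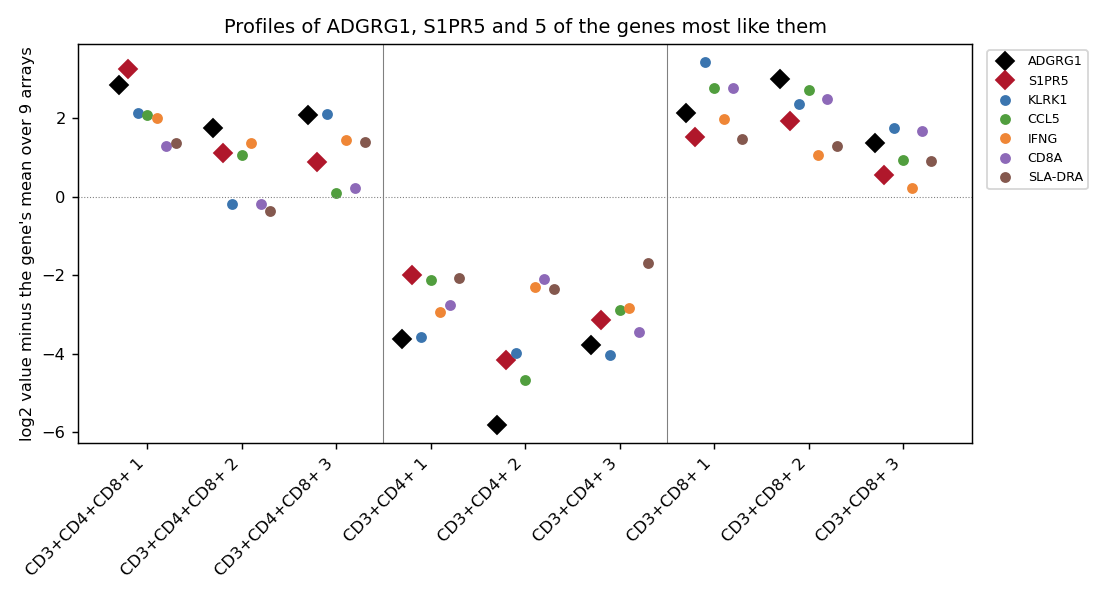
Log2 values centred on each gene's mean over the 9 arrays for ADGRG1 and S1PR5 (diamonds) and 5 of the genes nearest to them (circles), by array and fraction. All 7 genes lie below their mean on every CD4 array, and ADGRG1 reaches the lowest value, -5.81, on CD4 array 2.

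Genes that belong to the pathways of both receptors were read from lists, each gene by its brightest tested probe. Of the adhesion receptor family of 32 genes, ADGRG1, ADGRE5 and ADGRF1 had named probes, and the neighbours of ADGRG1 on its chromosome in the pig assembly Sscrofa11.1, ADGRG5 and ADGRG3, had none. ADGRE5, also known as CD97, a receptor widely found on leukocytes, stood at 2.47, 1.89 and 2.17 on the double positive arrays, 2.03, 0.99 and 1.13 in the CD4 fraction and 2.31, 2.54 and 2.06 in the CD8 fraction. It was called in none of the 3 comparisons by limma. Its smallest p came from the CD4 minus CD8 difference of -0.92 (adjusted p = 0.999), the only one of the 3 with an unadjusted p under 0.05. Of all tested probes, 4.84%, 6.52% and 4.54% had an unadjusted p under 0.05 between double positive and CD4, double positive and CD8, and CD4 and CD8 cells. ADGRF1 was not well above background on any array. In the list of ligands and partners of ADGRG1, the tetraspanin CD81 and the related CD9 were tested, out of 4 listed genes. Neither was called. CD9 gave the largest of their differences, 2.06 between double positive and CD8 cells (limma adjusted p = 0.28), the only one with an unadjusted p under 0.05.

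Of the other 4 sphingosine 1-phosphate receptors, among them S1PR1, which directs naive lymphocytes out of lymph nodes, none had a named probe, so they were not analysed here. Of 19 genes of sphingosine 1-phosphate synthesis, breakdown and transport, 3 were named on the array and 2 were tested. PLPP2, a phosphatase of lipid phosphates, stood at 1.44, 0.73 and 0.84 on the double positive arrays, at -2.46, -1.20 and -4.11 in CD4 cells and at -1.27, -1.13 and -4.19 in CD8 cells. All double positive arrays detected it, as did 1 of 3 arrays of each other fraction, and the double positive arrays did not overlap with the rest. Ranges of double positive and CD8 arrays did not overlap for 9.79% of all tested probes. Its difference from the CD4 fraction, 3.59 (SE 0.89), did not pass (limma adjusted p = 0.156, range over the alternatives 0.0369 to 0.621), nor did that from CD8 cells, 3.20 (limma adjusted p = 0.246). Its call against the CD4 fraction passed with the replicate number as a block and without the filter on dim probes. DEGS1, a desaturase of ceramide synthesis, differed by -0.10 and was not called.

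The 8 tested genes of G protein signalling downstream of such receptors, out of 31 listed, held no call in any comparison, where 0.293%, 0.312% and 0.437% of all tested probes were called between double positive and CD4, double positive and CD8, and CD4 and CD8 cells (47, 50 and 70 probes). At an unadjusted p under 0.05 the list had 2, 0 and 2 genes, beside 4.84%, 6.52% and 4.54% of all tested probes. Their median difference between double positive cells and the CD4 fraction was -0.13, beside -0.02 over all tested probes. RHOA, the small GTPase on which many adhesion receptors converge, stood at means of 8.78, 8.52 and 8.67 in double positive, CD4 and CD8 cells, and GNAI2, an inhibitory G protein subunit used by sphingosine 1-phosphate and chemokine receptors, at 4.59, 4.40 and 4.28. GNA11, another G protein subunit, had the smallest p, with -1.37 between double positive cells and the CD4 fraction (limma adjusted p = 0.539). GNAQ, a further subunit, differed by -0.99 in that comparison (limma adjusted p = 0.861). For both genes the double positive and CD4 arrays did not overlap.

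Of 12 transcription factors of effector lymphocytes, 3 had named probes. TBX21, which encodes T-bet, had none, nor had EOMES, ZEB2 or PRDM1. KLF2, a factor that drives S1PR1, stood at 6.74, 6.65 and 6.48 on average in double positive, CD4 and CD8 cells. ID2, an inhibitor of E proteins in effector cells, stood at 2.97, 2.38 and 3.25, and STAT4, which acts downstream of interleukin 12, ranged from 4.39 to 5.44 over the 9 arrays. None of the 3 was called by limma or had an unadjusted p under 0.05, and ID2 had the smallest p, with -0.86 between CD4 and CD8 cells (limma adjusted p = 0.999). Of the 4 tested factors of naive and memory cells none was called either. LEF1, a factor of naive T cells, stood at 6.68, 6.71 and 7.19 on the double positive arrays, below all arrays of the CD4 fraction (7.80, 8.71 and 8.43) and of the CD8 fraction (7.90, 8.66 and 7.96), and its difference of -1.45 from the CD4 fraction did not pass (limma adjusted p = 0.147). LEF1 was the only gene of the 4 with an unadjusted p under 0.05, against the CD4 and against the CD8 fraction. Over all tested probes these shares were 4.84% and 6.52%.

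Receptors of egress, homing and retention had 9 of 16 listed genes tested, and none was called by its brightest probe. For 1 of these genes, 1 of its 6 tested probes was called between double positive and CD4 cells. At an unadjusted p under 0.05 there were 5, 2 and 2 genes (double positive against CD4, double positive against CD8 and CD4 against CD8). The shares over all tested probes were 4.84%, 6.52% and 4.54%. The median difference of the list was 0.68 between double positive and CD4 cells, 0.25 between double positive and CD8 cells and -0.21 between CD4 and CD8 cells. CD69, a surface protein that binds S1PR1 and retains cells in tissue, stood at -0.02, 0.71 and -3.41 on the double positive arrays, at 2.13, 0.29 and -0.82 on the CD4 arrays and at 1.09, 1.73 and -0.60 on the CD8 arrays. These ranges overlapped. CXCR4, a homing receptor, had means of 5.50, 5.26 and 5.32 in double positive, CD4 and CD8 cells.

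Cytotoxic effector genes had 14 of 28 listed genes tested. Between double positive cells and the CD4 fraction 3 were higher, 0 were lower and 11 did not pass, with a median difference of 2.44. Over all tested probes the median was -0.02, and 0.664% of the named genes were called higher. Among the 11, FCGR3A missed by its brightest probe (log2 2.81, limma adjusted p = 0.0509), while 1 of its 3 probes was called. KLRK1 was 36.9-fold higher (log2 5.21, SE 0.63, limma adjusted p = 0.00589), CCL5 19.7-fold (4.30, SE 0.72, adjusted p = 0.0233, 1 of 2 probes called) and IFNG 19.6-fold (4.29, SE 0.52, adjusted p = 0.00589). With signals not well above background raised to the floor of their array, as above, the folds were 15.8, 12.0 and 10.1, since KLRK1 and IFNG were detected on 1 of 3 CD4 arrays and CCL5 on 2 of 3. With slide as a block none of the 3 calls passed (limma adjusted p = 0.120, 0.255 and 0.120). Without double positive array 1 none of the 3 passed (limma adjusted p = 0.0513, 0.173 and 0.0513), and CCL5 was also lost without double positive array 2, without CD4 array 2 or 3 and with the replicate block in the numbering of the processed values (limma adjusted p = 0.0510). These genes were known to differ in these data when the list was drawn up. With the normexp correction none of the calls of the list in any comparison passed.

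Between the CD4 and the CD8 fraction 5 of the 14 were lower in the CD4 fraction, 0 were higher and 9 did not pass, with a median of -2.72 beside -0.01 over all tested probes, where 0.796% of the named genes were called lower. KLRK1 (log2 -6.38), CCL5 (-5.36), IFNG (-3.77), GZMH, which encodes a granzyme (-4.47, limma adjusted p = 0.00661, 1 of 2 probes called), and the receptor CD96 were the 5. With dim signals raised to the floor, the differences of KLRK1, CCL5 and IFNG were -5.15, -4.65 and -2.81. CD96 was at least 14.4-fold lower (limma adjusted p = 0.00928), and its call was lost without CD8 array 2. This comparison and the one before share the CD4 arrays. Between double positive and CD8 cells 1 of the 14 was called, lower in double positive cells, as were 0.531% of the named genes. The median of the list was -0.56. It was CD96, at least 14.0-fold lower in double positive cells (limma adjusted p = 0.0128), where no array had it well above background. CD96 stood at 1.74, 2.65 and 1.36 on the CD8 arrays, the only ones to detect it, while ADGRG1 and S1PR5 were well above background on all 3 double positive arrays too. The call of CD96 was lost with slide as a block (limma adjusted p = 0.0854) and without double positive array 1 or 2 or without CD8 array 1 or 2 (limma adjusted p = 0.0549, 0.0560, 0.0523 and 0.106).

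**Figure D5:**
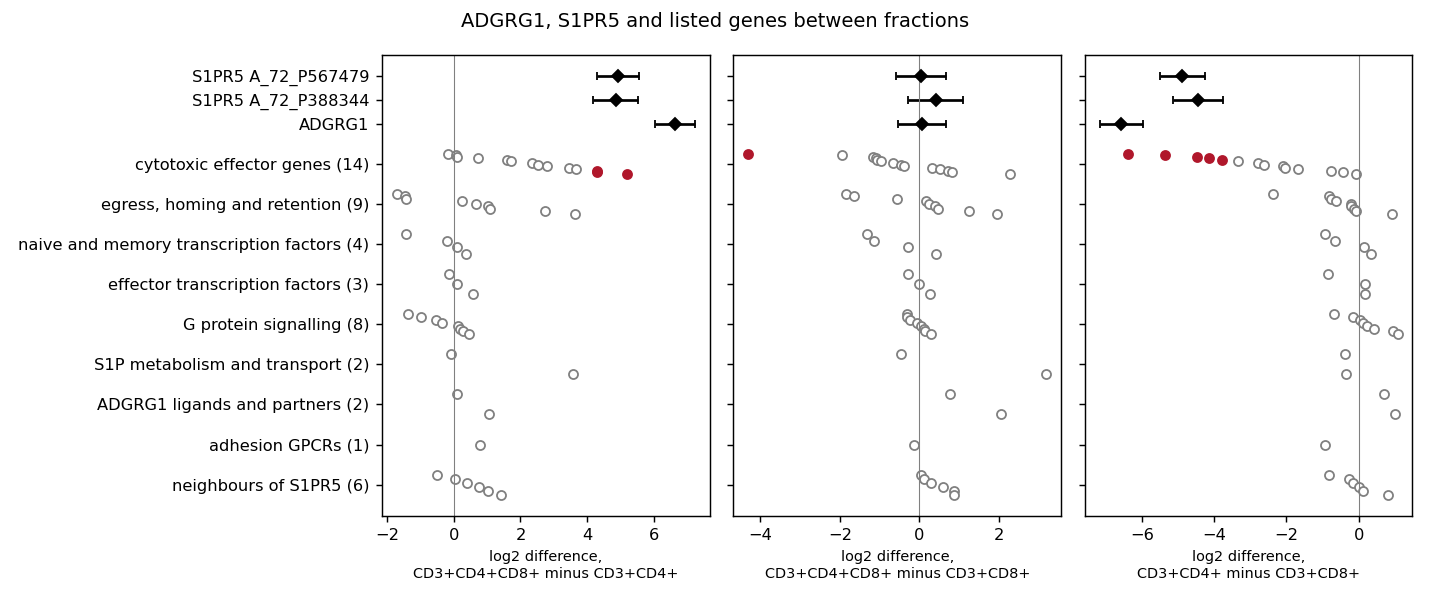
Log2 differences of ADGRG1 and the 2 S1PR5 probes (diamonds, with SE) and of the tested genes of 8 pathway and effector lists and of the neighbours of S1PR5 (circles, number of genes in brackets, filled where the limma adjusted p passed 0.05) in the 3 comparisons. The markers of sorting and of other cell types are not plotted. Among the plotted lists filled circles appear for cytotoxic effector genes, 3 between double positive and CD4 cells, 1 between double positive and CD8 cells and 5 between CD4 and CD8 cells.

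The genes next to S1PR5 on its chromosome were read to see whether the pattern extended to them. Of the 10 nearest protein-coding genes in the annotation of Sscrofa11.1, 5 on each side, 6 were tested: ICAM3, TYK2, CDC37, PDE4A, KEAP1 and ATG4D. None was called in any comparison by limma, where 0.293%, 0.312% and 0.437% of all tested probes were called. With so small a share, no call among 6 genes does not show where the pattern ends. At an unadjusted p under 0.05 there were 1, 1 and 0 genes, beside 4.84%, 6.52% and 4.54% of all tested probes. Double positive and CD4 arrays did not overlap for ICAM3 and TYK2, as for 10.1% of all tested probes. They overlapped for CDC37, PDE4A, KEAP1 and ATG4D. KEAP1 and ATG4D, which flank S1PR5, differed by 1.02 and 0.39 between double positive cells and the CD4 fraction, and ICAM3, an adhesion molecule of resting leukocytes, by 1.40 (limma adjusted p = 0.753), beside 4.86 for S1PR5. The median of the 6 was 0.57. None of the 10 neighbours of ADGRG1 had a named probe.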

How the data were processed

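Agilent Feature Extraction 11.0.1.1 read the arrays, which carry a single colour, per the file headers. Their deposited processed signal is an intensity corrected for background and spatial trend, not normalized between arrays. The deposited table of processed values is on a log2 scale with the same distribution in all 9 columns (median 2.60). The program behind this table was not stated. Its 3 CD3+CD8+ columns follow each other's scanner files, so values were taken from the scanner files and the table served as an alternative.

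Each processed signal was divided by its array's 75th percentile over the 43603 probes without controls and log2 was taken. Outlier spots (1 to 12 per array) were left out. None was saturated. Tested were the 16023 probes that all 3 arrays of a fraction, any one of them, found well above background. Names came from the unversioned accession in the RefSeq annotation of Sscrofa11.1, which named 6730 probes (15.4%). Other probes are unnamed here, not without a gene. Without a build in the files, coordinates are not printed, and no probe, transcript or protein sequences were used here.

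The 3 fractions were compared by limma 3.58.1, run under R 4.3.3 (lmFit, eBayes with trend, two-sided, Benjamini-Hochberg over all tested probes at 0.05), all 9 arrays in one fit. The code of the fit was run on simulated data with independent noise for each probe and array. That simulation held no slide, replicate or floor effect, so it does not bear on those. The number of arrays limits the precision. A bound ("at least") sets the brighter fraction's mean against the lowest signal well above background on each array of the dimmer. The series text calls the arrays biological replicates, without naming animals. Genes were named by a rule: in each list every gene called by its brightest probe, otherwise that with the smallest p, and the 8 genes most like each receptor. The gene this rule picks among egress and homing receptors is not reported here. The other list genes given (DEGS1, RHOA, GNAI2, GNAQ, KLF2, STAT4, CD69, CXCR4 and FCGR3A), the marker CD79A and the chromosome neighbours were chosen after the values were seen. The members and lists were chosen with earlier results of these data known. Alternatives were another percentile, normexp on the median spot signals, quantile normalization, the processed table, no filter, slide or replicate number as a block, each array left out and, added later, a floor for dim signals. Figures used Python 3.11.15 and matplotlib 3.10.9.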

Additional observations from a re-analysis of the deposited data

How the results depend on the processing

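Of the 177 alternative values of the 9 differences of ADGRG1 and S1PR5, 160 lay within 1 SD of the value given. Those against the CD4 fraction kept their direction under all 20 alternatives each, and those between double positive and CD8 cells changed sign in 4, 3 and 5 of 19 (ADGRG1, A_72_P388344 and A_72_P567479). Some alternatives return the value given by construction: no filter, either replicate block, and leaving out an array of the fraction not compared. These counts therefore overstate how much was checked. Of 340 alternatives for list genes and sorting markers, 293 kept their side of the threshold, 43 lost a call, 4 gained one and 0 changed direction. The number of probes called was 47 between double positive and CD4 cells, 50 between double positive and CD8 cells and 70 between CD4 and CD8 cells. In that order it was 1, 7 and 6 with normexp, 2, 2 and 38 with slide as a block, which takes double positive array 1 out, and 109 and 87 in the first pair without the filter. The percentile over detected probes gave 22 between double positive and CD8 cells, and the authors' processed values gave 24. The replicate block gave 144, 83 and 110, and 30 and 21 in the first pair when CD8 arrays take the numbers of the deposited processed values. With 1 array left out counts ran from 2 to 55, from 1 to 51 and from 31 to 81. The lowest of the first and second range came without double positive array 1. In the first, 22 remained without CD4 array 2 and 13 without CD4 array 3. In the second, counts were 9 without double positive array 2, 16 and 25 without CD4 arrays 2 and 3, and 21, 3 and 18 without CD8 arrays 1, 2 and 3. In the third, 41, 40, 31, 41 and 46 probes were called without CD4 arrays 1 and 2, CD8 array 2, CD8 array 1 and CD8 array 3. The cause of these shifts was not tested. Arrays of the same number shared deviations in part (r from -0.07 to 0.65, over 0.1 in 7 of 9 pairs), and 7 of 9 arrays were closest to their own number. In the numbering of the deposited processed values r ran from -0.31 to 0.65, over 0.1 in 3 of 9 pairs, and 3 of 9 arrays were closest to their own number. The labels name no animals, so the fit reported did not pair the arrays. Whether arrays of the same number come from the same animal was not tested. Signals near background limit ADGRG1 and S1PR5 in the CD4 fraction.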
